A study of Mus musculus with 3 samples.

Results

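The epicardium is the outer cell layer of the heart, and the fibroblasts, vascular smooth muscle cells and pericytes of the heart descend largely from it. A group of 33 mouse genes that mark these cells was examined for binding by TBX5, a T-box factor that acts in heart and forelimb formation, and 18 of the 33 had a TBX5 binding site within 50 kb (54.5%, beside 49.8% of all protein-coding genes). The members were chosen by name, out of 21631 protein-coding genes, as 11 genes of the epicardium, 9 of fibroblasts and their matrix, 9 of the contractile apparatus of smooth muscle and 4 of mural cells, which wrap small vessels.

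The data come from hearts of CD-1 mouse embryos, an outbred stock, taken at E14.5, in days of embryonic life. Chromatin was precipitated with an anti-TBX5 antibody in 2 biological replicates and sequenced beside 1 input sample, which was not precipitated. The authors called peaks once on the pooled TBX5 samples, and the spread between hearts is therefore not known. Whole hearts were used, and the peaks carry no mark of their cell of origin. A site bound in few cells and a site bound weakly in many cells therefore cannot be told apart, and neither can cardiac muscle cells and the cells named here.

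Epicardial cells delaminate, turn into mesenchyme and invade the heart wall, a process steered by factors such as Wt1 and Tcf21 and by retinoic acid. Smooth muscle cells then switch on a contractile gene set through serum response factor and its coactivator myocardin. T-box proteins recognise DNA around a core with the letters GGTGTG.

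A gene was called bound if the summit of a peak, its position of highest signal, lay in the RefSeq gene body or within 50 kb of it. By that rule 18 of 33 members were bound, or 54.5% (36.4 to 71.9% by the exact Clopper-Pearson 95% interval), beside 49.8% of all protein-coding genes. Epicardial and fibroblast members were bound in 12 of 20 cases and smooth muscle and mural members in 6 of 13. The share of members with a summit lay near the background, so the list as a whole did not stand apart from other genes by this count. Members were somewhat longer than genes in general, with a median body of 27022 bp beside 17329 bp, and long genes hold more summits. By length, 4 of 9 members with a body under 10 kb were bound (37.2% of all such genes), 9 of 18 with a body of 10 to 50 kb (52.1%) and 5 of 6 with a body of 50 kb or more (65.4%).

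Narrowing the window to 10 kb left 10 of 33 members bound, beside 29.9% of all genes, so 8 members were bound only between 10 and 50 kb. The loss fell mostly on the epicardial and fibroblast members, which had 5 of 20 genes bound at 10 kb, while smooth muscle and mural members had 5 of 13. In the gene body alone 7 members were bound, beside 19.2% of all genes. The windows held 36 distinct summits, none shared by 2 members, of which 10 lay in a gene body, 6 outside it within 10 kb and 20 at 10 to 50 kb. For epicardial and fibroblast members 14 of 20 summits lay beyond 10 kb, and for smooth muscle members 6 of 16. Members had a mean of 1.09 summits each, beside 1.08 for all protein-coding genes.

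**Figure D1:**
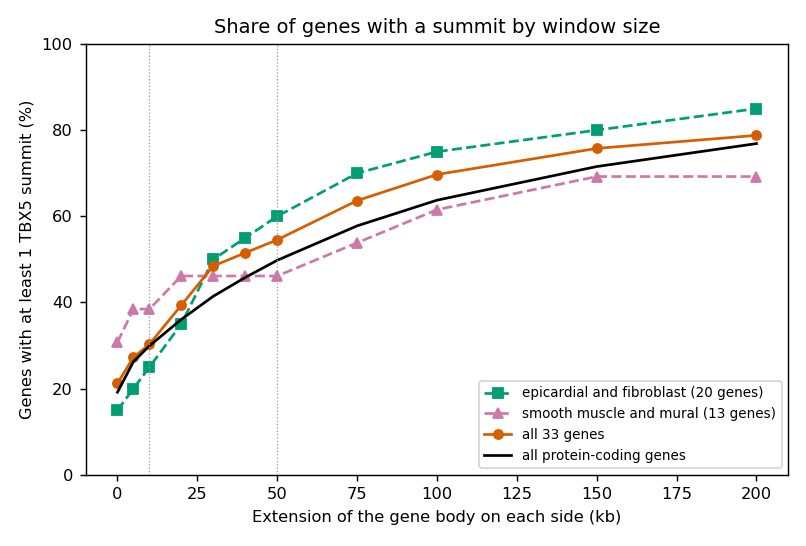
Share of genes with at least 1 TBX5 summit (vertical axis, %) as the gene body is extended on each side (horizontal axis, kb), for the epicardial and fibroblast members, the smooth muscle and mural members, all 33 members and all protein-coding genes. Dotted lines mark 10 and 50 kb. Epicardial and fibroblast members stand at 25.0% at 10 kb and 60.0% at 50 kb, whereas smooth muscle and mural members stand at 46.2% from 20 to 50 kb, and all protein-coding genes at 29.9% and 49.8%.

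Other ways of calling a gene bound moved the members and all genes by unequal amounts. With each summit given to its nearest protein-coding gene, up to 50 kb, 13 members were bound, beside 26.2% of all genes. Peaks with −log10 q of at least 10 left 15 members bound, beside 26.0% of all genes. Peaks at or above the median fold of the list left 17, beside 28.8%. Non-promoter peaks gave 16 members, beside 33.2%, and promoter peaks gave 8, beside 30.3%. Here the promoter class is the authors' label for a summit within 2000 bp of a transcription start. In shares, members stood at 39.4% (22.9 to 57.9%) by nearest gene and 45.5% (28.1 to 63.7%) for the peaks of high −log10 q. They stood at 51.5% (33.5 to 69.2%) for peaks of high fold and 48.5% (30.8 to 66.5%) for non-promoter peaks. All these shares lay above those of all genes, but the intervals by nearest gene and for non-promoter peaks contain the share of all genes. No interval serves as a test here, since members were chosen with earlier results known and these shares were not split by gene length. For promoter peaks members stood at 24.2% (11.09 to 42.3%), below all genes. These are descriptions of 1 peak list, without a test.

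Strength is given as the authors' fold enrichment, the number of pooled ChIP fragments at a summit relative to the background around it. The interval after a fold is the exact 95% Poisson interval of the fragments at the summit, with the background held fixed. It covers the counting error of those fragments only and leaves out that of the background. Summits in the member windows had a median fold of 6.12 (range 3.03 to 22.96) and a median of 23 fragments, beside 5.67 and 22 for all 12436 peaks. Of the 36 summits 6 reached 10-fold, and they belonged to Dcn, Myh11, Des, Aldh1a2, Fbln1 and Upk1b. The lowest of the 6, 11.24-fold at Upk1b, ranked 1665th among all 12436 peaks. The next member summit, 8.86-fold at Lmod1, ranked 2586th, so many peaks outside the member windows were as strong.

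**Figure D2:**
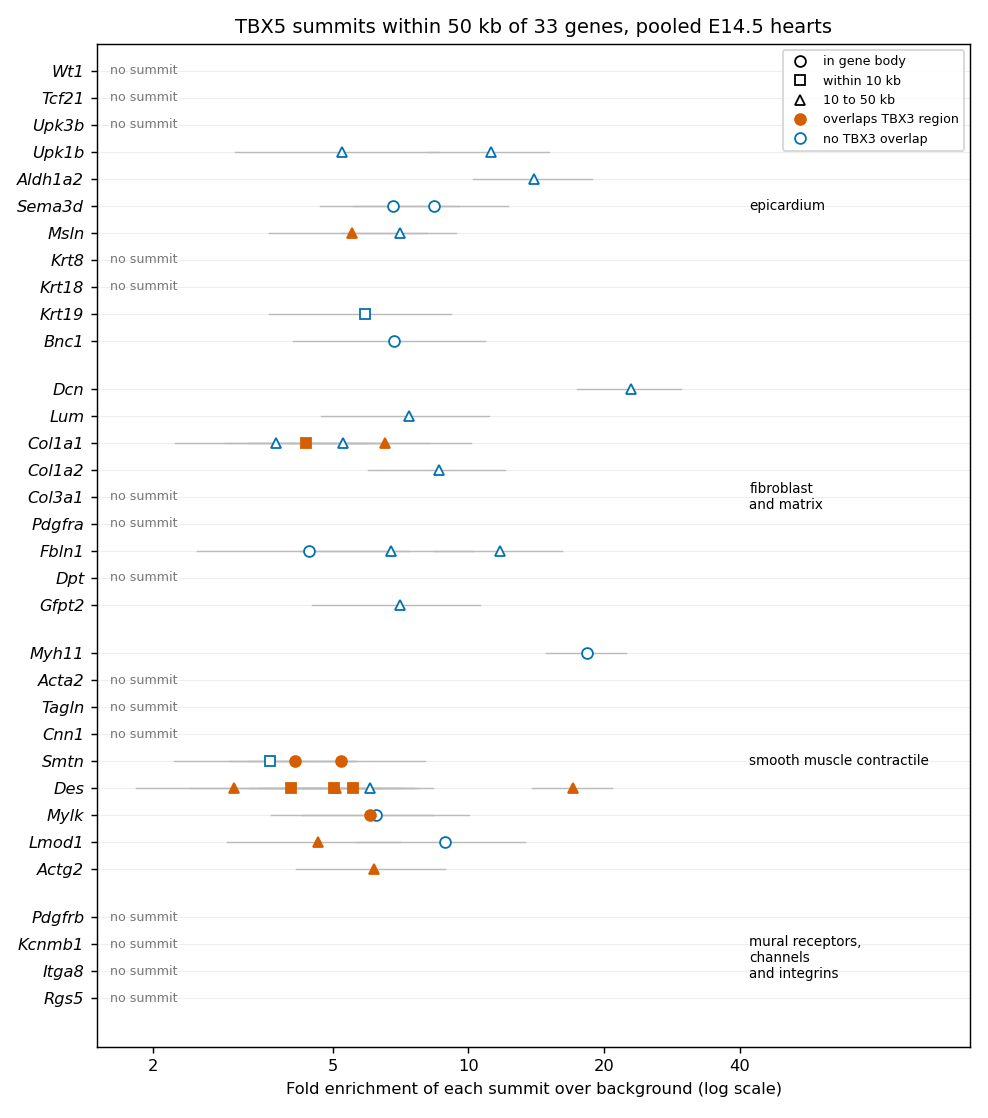
Fold enrichment over background of each TBX5 summit (horizontal axis, log scale) in the windows of the 33 members, grouped by role, with grey lines for the exact 95% Poisson interval. Circles lie in the gene body, squares within 10 kb and triangles at 10 to 50 kb, and filled symbols overlap a TBX3 region. The highest summits are those of Dcn at 22.96-fold, Myh11 at 18.3-fold and Des at 17.04-fold, and 15 members have no summit.

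The promoter sequences of Des and Smtn, where a called peak of a member reaches into the promoter, and of the neighbour Speg, whose peaks fall in the Des window, are shown for their letters at the peaks. RefSeq promoters (build GRCm38.p6, the assembly that mm10 names) run from 250 bases before to 50 bases after a start, and 22 of 33 members had an entry in the table used here. The sequences are printed 5′ to 3′ on the strand of the gene. In the first 3, from the Des start and from an outer and an inner start of its neighbour Speg, the 21 bases centred on the TBX5 summit are in capitals. In Smtn the capitals mark the 37 bases inside the called peak, whose summit lay just beyond the promoter window.
Des (chr1:75360042-75360341, + strand): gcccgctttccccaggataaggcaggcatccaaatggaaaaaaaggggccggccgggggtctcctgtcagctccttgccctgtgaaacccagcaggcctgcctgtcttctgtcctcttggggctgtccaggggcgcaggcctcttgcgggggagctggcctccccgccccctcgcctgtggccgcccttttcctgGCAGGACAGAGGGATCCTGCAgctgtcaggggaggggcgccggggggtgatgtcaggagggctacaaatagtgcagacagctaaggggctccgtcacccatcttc
Speg outer (chr1:75375047-75375346, + strand): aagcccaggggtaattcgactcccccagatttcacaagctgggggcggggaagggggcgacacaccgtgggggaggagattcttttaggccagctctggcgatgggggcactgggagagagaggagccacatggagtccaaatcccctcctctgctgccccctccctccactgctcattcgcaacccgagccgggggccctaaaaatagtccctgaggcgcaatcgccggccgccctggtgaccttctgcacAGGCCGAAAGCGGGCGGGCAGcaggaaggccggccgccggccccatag
Speg inner (chr1:75399835-75400134, + strand): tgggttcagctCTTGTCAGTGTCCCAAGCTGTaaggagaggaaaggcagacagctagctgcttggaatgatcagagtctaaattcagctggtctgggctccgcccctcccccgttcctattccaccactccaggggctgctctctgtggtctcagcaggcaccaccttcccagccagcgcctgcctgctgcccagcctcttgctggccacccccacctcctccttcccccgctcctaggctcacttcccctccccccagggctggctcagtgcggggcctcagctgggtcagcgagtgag
Smtn (chr11:3539243-3539542, - strand): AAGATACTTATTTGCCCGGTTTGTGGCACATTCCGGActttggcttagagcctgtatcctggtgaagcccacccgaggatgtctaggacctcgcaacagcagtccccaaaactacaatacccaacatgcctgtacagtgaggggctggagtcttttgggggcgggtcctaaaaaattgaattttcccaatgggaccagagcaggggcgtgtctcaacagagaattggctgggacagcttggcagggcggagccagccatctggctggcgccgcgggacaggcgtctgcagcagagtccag

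Of these 4 promoters the outer one of Speg held the T-box core GGTGTG, on the opposite strand, and the other 3 held it on neither strand. The core was found in 3 of 23 promoter entries of members (13.04%), in 22.9% of the 1378 promoters of any gene that contain a TBX5 summit and in 19.05% of all 32851 promoters. The 3 entries belong to Bnc1, Aldh1a2 and Kcnmb1, and no summit lay in any of them. They are shown with up to 20 bases on either side and the core, or its complement CACACC, in capitals, to set beside the bound promoters.
Bnc1 (chr7:81992472-81992517, - strand): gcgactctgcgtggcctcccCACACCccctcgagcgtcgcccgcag
Aldh1a2 (chr9:71215806-71215838, + strand): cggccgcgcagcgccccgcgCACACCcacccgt
Kcnmb1 (chr11:33962828-33962873, + strand): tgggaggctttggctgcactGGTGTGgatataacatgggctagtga

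The core began at position -198 from the start in Bnc1, 38 in Aldh1a2 and -165 in Kcnmb1, counting the start as 1. The shifted form AGGTGT, which can overlap GGTGTG by 5 letters, was found in 6 of the 23 entries (26.1%), beside 13.7% of all promoters, and overlapped the core in none of them. The GATA letters AGATAA were found in 3 (13.04% beside 11.2%) and the TEAD letters GGAATG in 6 (26.1% beside 14.7%), with 1 of these in Smtn. The CArG box, the site of serum response factor, was searched as CC, then 6 letters of A or T, then GG, and was found in 0 of the 23, beside 1.63% of all promoters. Each motif was searched on both strands. A match is a run of letters and not a measured site, and the regions outside these promoter windows were not searched.

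Among the 11 epicardial genes the factors Wt1 and Tcf21 were without a summit, whereas the zinc finger gene Bnc1 had 1. Tbx18, an epicardial factor of the further list below, had 2. Wt1, a zinc finger factor needed to form the epicardium, had its nearest summit 161864 bp away, a strong one of 24.05-fold. Tcf21, a helix-loop-helix factor of the epicardium and of the fibroblasts that descend from it, had its nearest summit at 108471 bp. The epithelial keratin genes Krt8 and Krt18 lay 97832 and 70148 bp from a 3.36-fold summit that was nearest to both. Upk3b, a uroplakin of mesothelial surfaces, lay 310735 bp from its nearest summit. A missing summit means that no peak passed the authors' threshold.

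Aldh1a2, which encodes the enzyme that makes retinoic acid in the epicardium, had the strongest epicardial summit. The peak at chr9:71321355-71321581 had 14.02-fold enrichment (10.2 to 18.8) from 43 fragments and lay 25230 bp beyond the end of the gene. No other protein-coding gene lay within 50 kb of its summit, and it carried H3K4me1 and H3K27ac, marks of active enhancers. Histone marks here come from ENCODE regions and were not measured in these samples. Sema3d, a secreted guidance molecule of the semaphorin family, had 2 summits inside its body. They had 8.38-fold (5.54 to 12.2) at chr5:12499938-12500404 and 6.80-fold (4.69 to 9.56) at chr5:12507730-12507945, in a window that held no other gene. These are the 2 epicardial genes whose peaks had no other candidate gene within 50 kb.

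Krt19, a keratin of simple epithelia, was the only epicardial member with a summit in the promoter class nearest to it. Its peak at chr11:100146203-100146378 had 5.89-fold enrichment (3.62 to 9.13) from 18 fragments, with the summit 382 bp outside the body. It was labelled with H3K4me1, H3K4me3, H3K9ac and H3K27ac. Bnc1, the zinc finger gene basonuclin 1, had 1 summit in its body at chr7:81977884-81978109, with 6.85-fold (4.09 to 10.9) from 16 fragments. That summit carried none of the 6 histone marks examined.

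For Upk1b and Msln no summit was nearest to the member. Upk1b, another uroplakin, had 11.2-fold (8.17 to 15.1) at chr16:38816477-38816755, which lay 16426 bp from it and nearest to Tex55. Its other summit, at 43430 bp, had 5.26-fold (3.03 to 8.58) and lay nearest to B4galt4. Msln, which encodes the mesothelial surface protein mesothelin, had 7.07-fold (5.21 to 9.38) at chr17:25773654-25773931 in a window shared with 10 other genes. That summit lay 2 bp from a start of Ciao3, a gene for iron-sulfur cluster assembly. The other Msln summit, of 5.52-fold (3.61 to 8.10), lay 48955 bp away near Fbxl16 and was the only epicardial summit that overlapped a TBX3 region.

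In fibroblast genes the strongest summit of all 33 windows lay near Dcn. Dcn encodes decorin, a small proteoglycan that binds collagen fibrils, and its peak at chr10:97436763-97437211 had 22.96-fold enrichment (17.4 to 29.7) from 56 fragments. It ranked 359th by fold among the 12436 peaks. The summit lay 42508 bp outside the gene body, with no other protein-coding gene within 50 kb, and carried H3K4me1 and H3K27ac. Lum, the adjacent gene for the related proteoglycan lumican, had 7.39-fold (4.70 to 11.1) at chr10:97595366-97595564. That peak lay 22758 bp from Lum, with Kera the nearest protein-coding gene, and it had none of the 6 marks. It was in the promoter class through a start of 4930473O22Rik, 1470 bp from the summit.

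The fibrillar collagen genes differed among themselves. Col1a1 had 4 summits, from 3.75-fold (2.24 to 5.95) to 6.54-fold (4.02 to 10.1), the strongest at chr11:94916664-94916893. The strongest lay 19470 bp and the nearest 7141 bp from the gene, and both of these overlapped TBX3 regions. The remaining 2 lay nearest to Sgca, a gene of the muscle sarcoglycan complex, and overlapped none. Col1a2, the partner chain of the same collagen, had 8.63-fold (5.98 to 12.07) at chr6:4563524-4563782, 22119 bp beyond the gene and without any of the 6 marks. Col3a1 had no summit within 351066 bp.

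Fbln1, which encodes the matrix protein fibulin 1, had 3 summits. The strongest, at chr15:85178114-85178542, had 11.8-fold (8.39 to 16.1) and lay 27559 bp upstream of the gene. The one in the body, at chr15:85207826-85208054, had 4.43-fold (2.50 to 7.34) and lay 1973 bp from a Fbln1 start. The third had 6.73-fold (4.24 to 10.2), lay 49547 bp away near Ribc2, and was the member summit closest to the edge of the window. Gfpt2, an enzyme of hexosamine synthesis, had 7.05-fold (4.49 to 10.6) at 39129 bp, nearest to Mapk9. Pdgfra, the platelet-derived growth factor receptor of fibroblasts, and Dpt, the matrix protein dermatopontin, had none within 207079 and 72262 bp.

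Of the 9 contractile genes of smooth muscle 6 were bound, beside 49.8% of all protein-coding genes. Acta2 (smooth muscle actin), Tagln (transgelin) and Cnn1 (calponin 1) are classical markers of the contractile state, and their nearest summits lay 497881, 101110 and 252183 bp away. Myh11, the smooth muscle myosin heavy chain, had instead the second strongest summit of the group. The peak at chr16:14265342-14265918 lay inside the gene body, with 18.3-fold enrichment (14.9 to 22.4) from 95 fragments. It was labelled poised, carrying H3K4me1 and no H3K27ac, and did not overlap a TBX3 region.

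Des encodes desmin, an intermediate filament of cardiac and skeletal as well as smooth muscle, and it held the most summits, 7. Among all protein-coding genes 1.36% had 7 or more at 50 kb. The summit 45 bp upstream of the Des start had 5.05-fold (3.44 to 7.17) at chr1:75360063-75360405, inside the promoter printed above. Another summit, 814 bp upstream, had 5.55-fold (3.85 to 7.77) at chr1:75359285-75359644. Both carried H3K27ac and overlapped TBX3 regions. The other 5 lay nearest to Speg, a kinase gene of striated muscle downstream of Des.

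The strongest summit of the Des window, 17.04-fold (13.8 to 20.8) from 94 fragments at chr1:75399710-75400121, lay 229 bp upstream of the inner Speg start printed above. The next 4 Speg summits had 6.06-fold (4.27 to 8.36), 5.08-fold (3.26 to 7.57), 4.03-fold (2.41 to 6.40) and 3.03-fold (1.83 to 4.75). Of the 7 summits 6 overlapped TBX3 regions, and all 7 carried H3K4me1, H3K9ac and H3K27ac. Both summits at the Des start lay below the median fold of the whole list, and the strong one of this window stood at another gene.

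**Figure D3:**
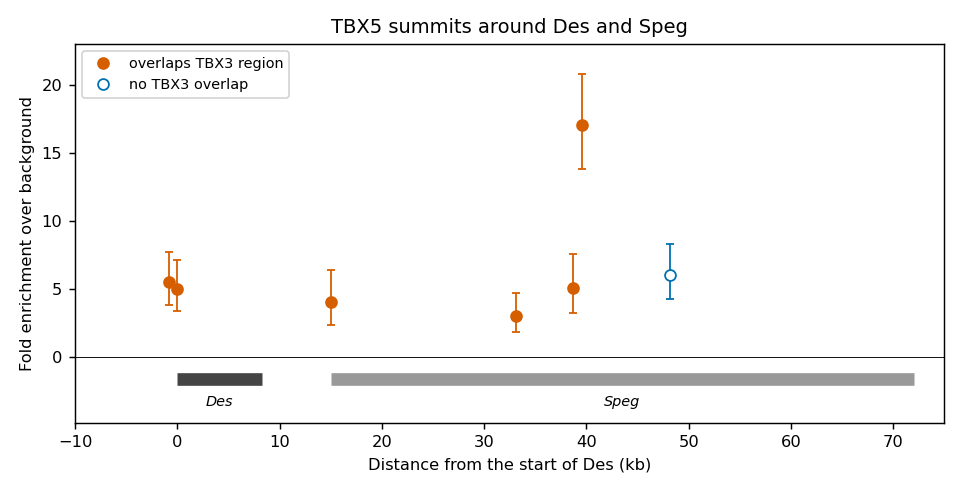
Fold enrichment over background (vertical axis) of the 7 TBX5 summits in the Des window against distance from the start of Des (horizontal axis, kb), with exact 95% Poisson intervals. Bars below zero mark the bodies of Des and Speg, and filled points overlap a TBX3 region. The 2 summits at the Des start have 5.55-fold and 5.05-fold, and the 17.04-fold summit lies inside Speg.

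Smtn, the gene of the actin-binding protein smoothelin, had 3 summits within 10 kb, all below the median fold of the list. They had 5.23-fold (3.25 to 8.02) at chr11:3517545-3517739, 4.12-fold (2.94 to 5.61) at chr11:3535483-3535802 and 3.63-fold (2.23 to 5.62) at chr11:3539506-3539759. The last lay 320 bp upstream of the start, and the other 2, both inside the body, overlapped TBX3 regions. Mylk, which encodes myosin light chain kinase, had 2 summits in its body, 6.23-fold (3.66 to 10.02) at chr16:34792908-34793085 and 6.06-fold (4.27 to 8.36) at chr16:34958668-34959002. The second was in the promoter class through a start of E130310I04Rik, an overlapping gene, 221 bp from the summit.

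Lmod1 and Actg2 completed the bound contractile genes. Lmod1, leiomodin 1, a nucleator of actin filaments, had 8.86-fold (5.64 to 13.3) in its body at chr1:135333680-135333896 and 4.63-fold (2.92 to 7.04) at 10687 bp, nearest to Shisa4. Actg2, the actin of visceral smooth muscle, had 6.18-fold (4.15 to 8.89) at chr6:83495945-83496237, 16809 bp away and nearest to Dguok.

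None of the 4 mural genes was bound. Together with the contractile genes they made 6 of 13 bound (46.2%, 19.2 to 74.9%), near the 49.8% of all protein-coding genes. Pdgfrb, the receptor that recruits mural cells, had its nearest summit at 81683 bp. It was 58603 bp for Itga8, an integrin subunit, 403053 bp for Rgs5, a regulator of G protein signalling in pericytes, and 816504 bp for Kcnmb1, a subunit of the large-conductance potassium channel. Itga8 was the unbound member closest to the window edge. Over the 15 unbound members the nearest summit lay at a median of 161864 bp, and it was beyond 100 kb for 10 of them. Bound and unbound members together had a summit within 100 kb in 69.7% of cases, beside 63.7% of all protein-coding genes. A nearest summit beyond 100 kb was therefore not more common among the members as a whole than among genes in general.

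TBX3 is a T-box repressor of the conduction system, and the authors' table marks each peak that overlaps its regions, whose tissue and stage no source used here gives. Of the 36 summits 14 overlapped TBX3 regions (38.9%, 23.1 to 56.5%), beside 27.03% of all peaks. The overlap was uneven, with 3 of 20 summits at epicardial and fibroblast genes (15%, 3.21 to 37.9%) and 11 of 16 at smooth muscle genes (68.8%, 41.3 to 88.98%). The 3 belonged to Col1a1 and Msln. Without Des the smooth muscle share was 5 of 9 (55.6%, 21.2 to 86.3%). In the further genes of the same cell types described below, TBX3 regions overlapped 25.4% of the epicardial and fibroblast summits and 35.3% of the smooth muscle and mural summits, a smaller gap than among the members. These intervals treat neighbouring peaks as independent, which they are not, and the difference was not tested.

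The histone marks in the table come from ENCODE regions, whose tissue and stage no source used here gives. A peak counted as marked if any file of that mark overlapped it. H3K27ac, a mark of active regulatory DNA, was present at 28 of 36 summits (77.8%, 60.9 to 89.9%), beside 73.5% of all peaks. It was found at 17 of 20 epicardial and fibroblast summits and at 11 of 16 smooth muscle summits, of which 7 were those of Des. Without Des the smooth muscle members had it at 4 of 9, and the further genes had it at 88.7% of epicardial and fibroblast summits and 87.3% of smooth muscle and mural summits. H3K9ac, an acetylation of active promoters and enhancers, was at 6 of 20 epicardial and fibroblast summits (30.0%) and 12 of 16 smooth muscle summits (75%), beside 46.0% of all peaks. Without Des the smooth muscle members had H3K9ac at 5 of 9 (55.6%), and in the further genes the order was the opposite, with 63.4% at epicardial and fibroblast summits and 55.9% at smooth muscle and mural summits. H3K4me1 was at 30 of 36 (83.3% beside 72.3%) and H3K4me3, the promoter mark, at 13 of 36 (36.1% beside 31.8%).

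Peaks in the authors' poised class, which here carried H3K4me1 and no H3K27ac, numbered 4 of 36 (11.1%), beside 14.2% of all peaks. All 4 lay in bodies of contractile genes, 1 each in Myh11, Smtn, Mylk and Lmod1, and 0 of 20 epicardial and fibroblast summits were poised. The one in Smtn, at the downstream end of the body, also carried H3K4me3 and H3K9ac, whereas those in Myh11, Mylk and Lmod1 carried H3K4me1 alone. H3K27me3, the Polycomb mark, was at 0 of 36 summits (upper limit 9.74%), beside 1.63% of all peaks, and H3K9me3 was also at 0. The numbers are too small to tell these last shares from the rest of the list.

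**Figure D4:**
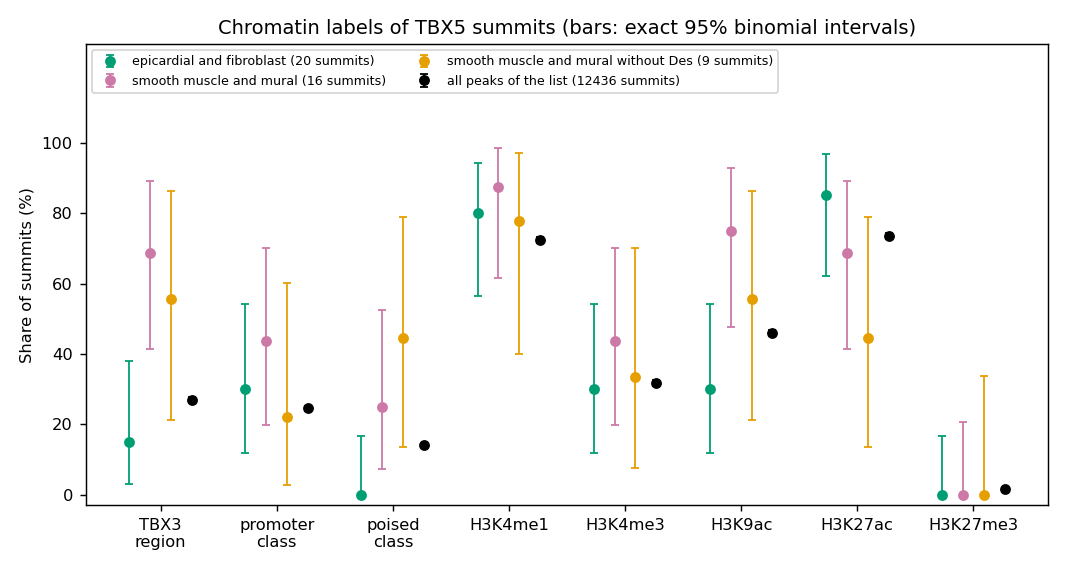
Share of TBX5 summits (vertical axis, %) that overlap TBX3 regions, fall in the authors' promoter or poised class or carry each histone mark, for the epicardial and fibroblast members, the smooth muscle and mural members, the smooth muscle and mural members without Des, and all peaks of the list, with exact 95% binomial intervals. TBX3 overlap stands at 15% for epicardial and fibroblast, 68.8% for smooth muscle and 27.03% for all peaks.

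Peaks near a member often had another gene closer by. The nearest protein-coding gene was the member for 20 of the 36 summits and a different gene for 16. By members, 13 of 18 bound genes had at least 1 summit nearest to them, and Upk1b, Msln, Lum, Gfpt2 and Actg2 had none. H3K27ac was at 13 of the 20 summits nearest to a member (65.0%) and at 15 of the 16 nearest to another gene (93.8%). Assignment by position does not show which gene a site regulates.

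Other genes of the same pathways were counted by the same rule. Of 36 further epicardial and fibroblast genes 23 were bound at 50 kb (63.9%, 46.2 to 79.2%), beside 49.8% of all protein-coding genes. At 10 kb 17 were bound (47.2%), beside 29.9% of all genes. The highest folds stood at Rara, a retinoic acid receptor (32.4-fold, 26.98 to 38.6, nearest to Gjd3), and at Tbx18, a T-box factor of the epicardium (13.8-fold, 10.02 to 18.5). Snai1, a driver of the epithelial to mesenchymal transition, had 13.5-fold (11.2 to 16.1), Gata6 had 13.4-fold (9.81 to 17.99) and Zeb1 10.6-fold (7.34 to 14.8). The 13 without a summit were Snai2, Twist1, Pdgfb, Itga4, Postn, Ddr2, Fn1, Mfap5, Vim, Col5a1, Fbn1, Sparc and Osr1. Col6a1, a collagen gene of the same list, had 2 summits, 1 of them within 10 kb. Its stronger summit, of 10.5-fold (7.51 to 14.2), lay 45845 bp from it and nearest to Pcbp3.

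Of 32 further smooth muscle and mural genes 31 were bound at 50 kb (96.9%, 83.8 to 99.9%), with Ppp1r14a the exception, beside 49.8% of all protein-coding genes. At 10 kb 27 were bound (84.4%), beside 29.9% of all genes. Abcc9, the sulfonylurea receptor of muscle potassium channels, reached 32.7-fold (27.2 to 38.9), Fhl2 29.4-fold (24.6 to 34.8) and Myocd, which encodes myocardin, 21.5-fold (16.8 to 27.2). Mrtfb, a relative of myocardin, reached 17.8-fold (13.4 to 23.2) and Ppp1r12b, a myosin phosphatase subunit, 17.7-fold (14.8 to 21.0). These summits lay in the gene body for Abcc9, Myocd and Ppp1r12b, 12857 bp outside it for Mrtfb and 49431 bp outside it for Fhl2. As background, several of the 32, such as Myocd, Tpm1 and Vcl, are also expressed in cardiac muscle.

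For scale, 24 of 25 genes of the cardiac sarcomere were bound at 50 kb (96.0%, 79.7 to 99.9%), beside 49.8% of all protein-coding genes. Of 20 genes of endothelium and endocardium 11 were bound (55%, 31.5 to 76.9%). TBX3 regions overlapped 30.0% of the summits in the sarcomere windows and 29.2% in the endothelial and endocardial windows. The sarcomere and smooth muscle lists share Tpm1. No difference between the lists was tested, and the lists were not matched for gene length.

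**Figure D5:**
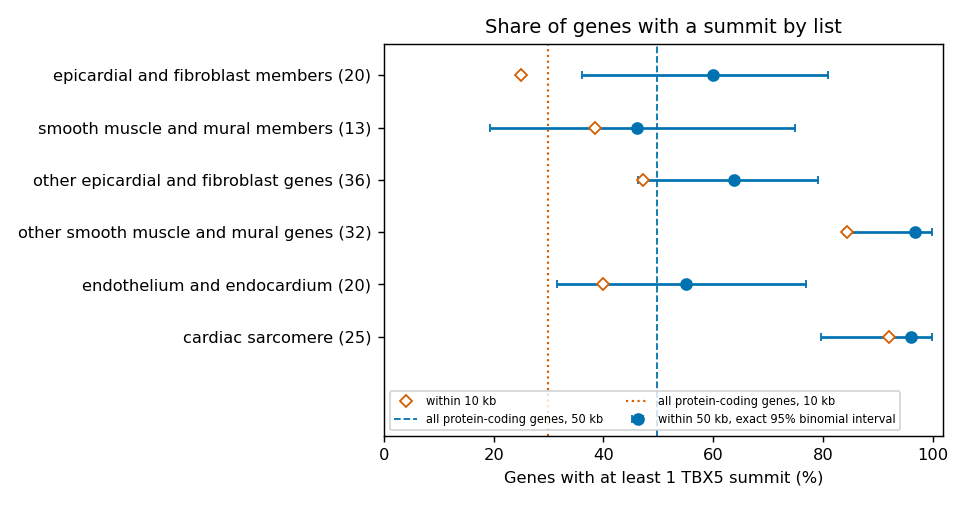
Share of genes with at least 1 TBX5 summit (horizontal axis, %) within 50 kb, as circles with exact 95% binomial intervals, and within 10 kb, as diamonds, for 6 gene lists with their sizes in brackets. Vertical lines mark all protein-coding genes at 49.8% and 29.9%. The further smooth muscle genes at 96.9% and the sarcomere genes at 96.0% stand highest, and the smooth muscle and mural members stand at 46.2%.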

How the data were processed

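The series holds 3 samples, 2 TBX5 precipitates and 1 input. Per the labels' protocols, fragments measured 200 to 650 bp and reads were single-end with 50 bases. The submitters' processing notes name Bowtie2, SAMtools, MACS2, ChIPseeker and mm10, without versions or settings. The fold or ratio of each peak and its −log10 p and −log10 q are the authors' deposited values from 1 call on pooled samples, and the score in the deposited peak file equals 10 × −log10 q with decimals dropped. These values describe, rank or filter peaks of the list and nothing else. The 3 deposited files hold the same 12436 peaks. Read depth is unknown. The number of fragments at a summit and the background were solved from fold, (fragments + 1)/(background + 1), and −log10 p, taken as an upper Poisson tail, with a misfit under 0.0005 for every peak.

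Summits were assigned to bodies of 21631 RefSeq protein-coding genes of GRCm38.p6 on chromosomes 1 to 19 and X. That gene table gives no exons. Positions are 1-based. All 33 members matched a symbol. With pooled peaks there are no replicates, so counts, shares and intervals are given and no test was run. Intervals are exact (95%, Poisson or Clopper-Pearson) and cover counting error only, and those of folds hold the background fixed. The members and lists were chosen with earlier results of these data known. Every member is described, and each further list of the same cell types names its 5 genes of highest fold. The sarcomere and endothelium lists are given by counts. Genes named as unbound were picked after their values were seen, as were the Speg promoter and the 3 promoters with the core. Authors' starts were matched to RefSeq promoter starts within 2 bp. Tables were made with pandas 2.3.3 and numpy 2.4.6, intervals with scipy 1.17.1 and plots with matplotlib 3.10.9, under Python 3.11.15.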

Additional observations from a re-analysis of the deposited data

How the results depend on the processing

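No paired analysis was possible because the peaks were called once on pooled samples, so no sample could be left out either. Of 55 recomputed values 39 stayed close to those reported, meaning within 1.5 times for counts and inside the 95% interval for shares and the median, and 16 moved. The number of members bound, 18 at 50 kb, was 10 at 10 kb, 7 in the body and 8 with promoter peaks. For epicardial and fibroblast members it was 12, and 5, 3 and 5 under these settings, and for smooth muscle and mural members it was 6, and 3 with promoter peaks. The 36 summits became 16 at 10 kb, 10 in the body, 20 by nearest gene, 20 with −log10 q of at least 10, 21 at or above the median fold, 23 outside promoters and 13 in promoters. Each of these settings uses a smaller window or fewer peaks. The H3K27ac share of 77.8% was 50.0% in the body, and the median fold of 6.12 was 7.23 with −log10 q of at least 10. The TBX3 share of 38.9% ranged from 27.6% without Des, a setting added after seeing the data, to 43.8% at 10 kb. H3K27me3 has 1 region file, so requiring both files could not be tried for it. Read depth is unknown and no detection limit was measured, so an absent summit says only that no peak was called. The median peak rests on 22 fragments.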
